A study of Homo sapiens with 6 samples.

Results

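The HOX cluster genes are the 39 genes, of 32029 listed for SW480 cells, whose symbols consist of HOXA, HOXB, HOXC or HOXD followed by a number. Antisense and pseudogene entries were left out. The list held 11 HOXA, 10 HOXB, 9 HOXC and 9 HOXD genes, and 33 of the 39 had enough reads to be tested. SW480 is an established line grown from a human colorectal adenocarcinoma. Total RNA was sequenced from 3 cultures that received a control siRNA (siNC, genotype given as WT) and from 3 cultures in which ZEB1 was knocked down by siRNA (siZEB1). RNA was taken 48 h after transfection, and the comparison asked which transcripts depend on ZEB1, a zinc finger and homeobox repressor of epithelial genes. Both groups came from this 1 cell line, and the study calls the samples of a group biological replicates.

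HOX genes encode homeodomain transcription factors that give cells their position along the head to tail axis of the embryo. They lie side by side in clusters, and their order on the chromosome follows the order of their expression along that axis. Genes at the same place in different clusters are paralogs and carry the same number, with low numbers used at the head end and high numbers at the tail end. The proteins bind DNA together with TALE homeodomain cofactors of the PBX, MEIS and PKNOX families, retinoic acid switches on the low-numbered genes, and Polycomb and trithorax complexes keep the clusters silent or active. Adult colon epithelium keeps part of its embryonic HOX pattern.

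The libraries held 19040636 to 22357633 reads assigned to genes. ZEB1 itself stood at 54.2 ± 6.24 CPM (read counts scaled to library size) in siNC and 7.51 ± 0.843 CPM in siZEB1 (mean ± SD, n = 3), with no overlap between groups. The log2 fold change was −2.85 (SE 0.108, adjusted p = 4.851e-12, edgeR's quasi-likelihood test). Of 10 colorectal epithelial markers 9 were listed, with KRT8 at 3455 and 3534 CPM and KRT18 at 1418 and 1460 CPM, while CDH17 had at most 5 reads in any sample. EPCAM (log2 fold change 3.05), VIL1 (2.34) and KRT19 (1.62) were higher in siZEB1, CDX2 and LGR5 were lower, and the summed marker level ran from 4815 to 5438 CPM in siNC and from 5329 to 6002 CPM in siZEB1. The summed levels were 13.45 to 14.99 and 13.32 to 15.26 CPM for the 6 listed of 7 fibroblast markers, 2.12 to 2.95 and 1.62 to 2.65 CPM for the 3 listed of 5 endothelial markers, and 0.988 to 1.297 and 1.25 to 1.41 CPM for the 4 listed of 5 leukocyte markers. Among the fibroblast markers PDGFRB was called higher (log2 fold change 0.42, adjusted p = 0.0281, edgeR's quasi-likelihood test). COL1A1 gave −0.22 and was not called, and the other 4 had at most 5 reads in every sample. In bulk RNA, fewer cells expressing a gene and less RNA of it per cell cannot be told apart.

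SW480 cells expressed genes of all 4 clusters, and HOXB genes made up most of the HOX RNA. Levels are compared between genes as RPKM, reads scaled by library size and by exon length in kilobases, since longer transcripts collect more reads. On this scale the siNC samples summed to 200.6 ± 11.3 over the HOXB genes, 91.9 ± 1.96 over HOXA, 70.9 ± 3.03 over HOXC and 11.4 ± 0.898 over HOXD. HOXB genes therefore held 53.5 ± 0.803% of the summed HOX level, HOXA genes 24.5 ± 0.994%, HOXC genes 18.9 ± 0.352% and HOXD genes 3.04 ± 0.112% (mean ± SD, n = 3). Every HOX gene together accounted for 0.0915%, 0.0934% and 0.0979% of the reads of the 3 siNC libraries.

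The highest level belonged to HOXB9, a gene of the thoracic skeleton, at 42.3 ± 2.26 RPKM in siNC, above 96.5% of the 31059 genes that had an annotated length. HOXB8, known for its part in myeloid and microglial development, followed at 39.6 ± 1.95, and HOXB7 at 37.0 ± 2.56. The siNC samples of HOXB9 overlapped those of HOXB8, and those of HOXB8 overlapped those of HOXB7, so the order of these neighbours did not exceed the spread. HOXB2, a hindbrain patterning gene, stood at 26.9 ± 1.68, with all its siNC samples below those of HOXB7. The order of genes depends on the length used, here all annotated exonic bases, and was not recomputed with the longest transcript. HOXB9 has 2581 exonic bases and 2581 in its longest transcript, and HOXB8 has 2051 and 1823. HOXB2 has 2336 and 1562, HOXB7 has 1528 and 1371, and HOXB3 has 7456 and 4208. The longest transcript would raise HOXB8 but not HOXB9, and HOXB2 by a larger factor than HOXB7. The first place of HOXB9 and the gap between HOXB7 and HOXB2 are therefore stated for exonic bases only. HOXC8, which marks brachial motor neurons, reached 24.8 ± 1.09 and overlapped HOXB2. A second tier between 10.7 and 16.4 held HOXB6, HOXA9, HOXB5, HOXB3, HOXC10, HOXA5 and HOXA7, and the sample values of HOXC8 lay above all those of HOXB6.

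Summed by paralog number, the level peaked in the middle of the series. The paralogs numbered 9 summed to 74.1 ± 3.95 RPKM in siNC and those numbered 8 to 66.8 ± 3.47. The paralogs numbered 12 summed to 0.524 ± 0.107, the lowest value, and those numbered 13 to 7.56 ± 0.245. HOXB13, a hindgut and prostate gene, and HOXC13, a hair and nail gene, supplied nearly all of the latter at 3.23 ± 0.225 and 3.95 ± 0.334. HOXA13, a gene of the hindgut and the digits, was weak, with 34, 25 and 25 reads in siNC and 15, 23 and 17 in siZEB1. Only HOXD9, a lumbar and limb gene, exceeded 5 on this scale within HOXD, at 6.77 ± 0.480 in siNC.

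**Figure D1:**
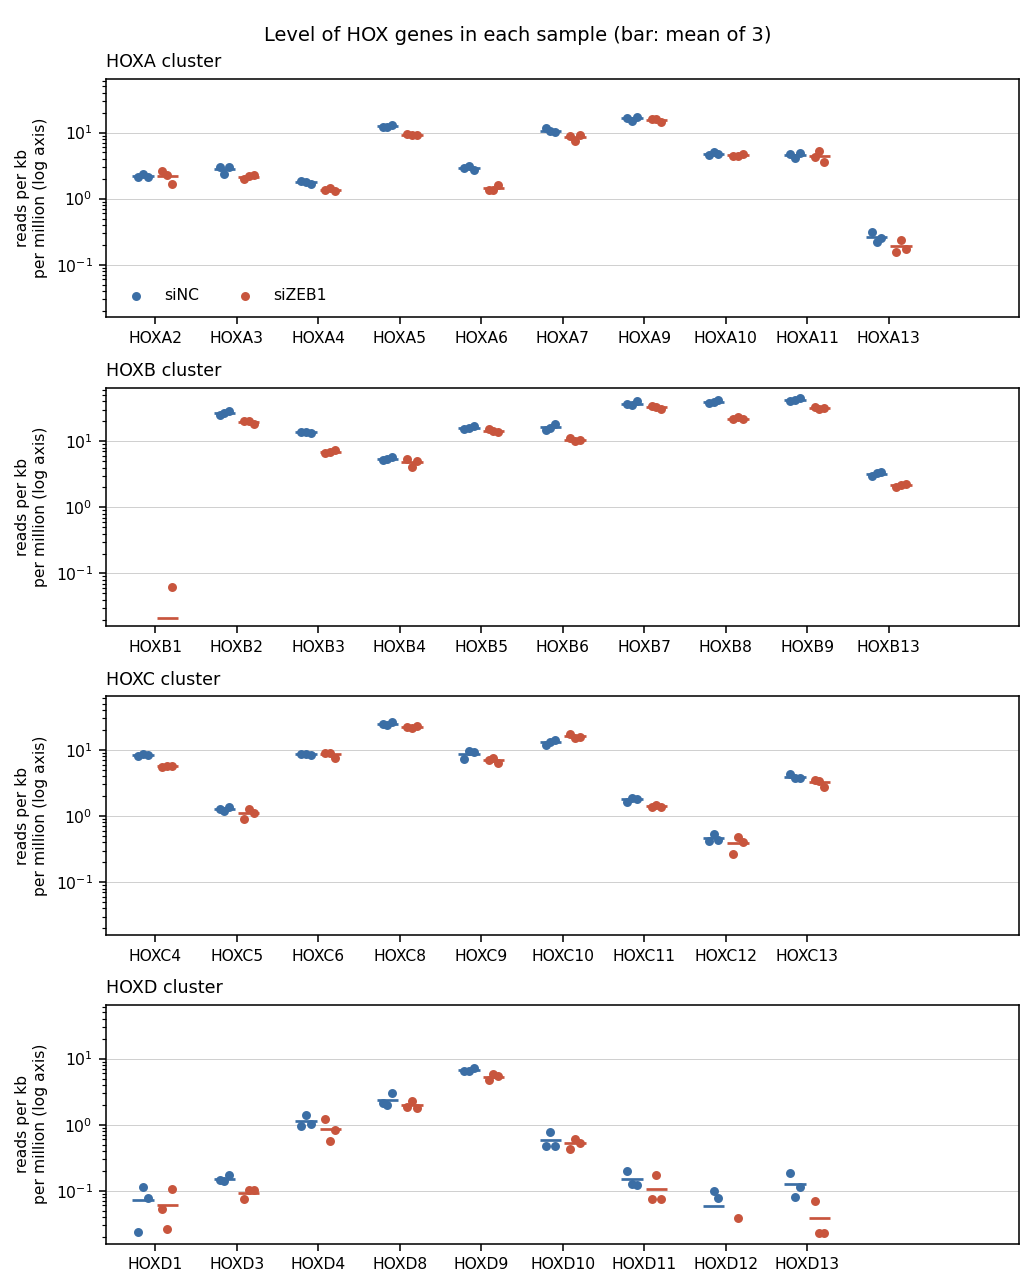
Level of the HOX genes in each of the 6 samples, in RPKM on a log axis, with 1 panel per cluster, points for samples and bars for the mean of 3. Samples with 0 reads cannot be drawn on the log axis. HOXB9, HOXB8 and HOXB7 are the highest in siNC, and HOXB1 and most HOXD genes sit at the bottom.

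A weak group had too few reads to test. It held HOXB1, HOXD1, HOXD3, HOXD11, HOXD12 and HOXD13, with means of 0.5 to 8.83 reads over the 6 samples. HOXB1, a hindbrain gene, had 0 reads in every siNC library and 0, 0 and 3 in siZEB1. A count of 0 at this depth says that its RNA was not detected. HOXD1 had 1, 5 and 3 reads in siNC and 2, 1 and 4 in siZEB1, HOXD11 had 9, 6 and 5 against 3, 7 and 3, and HOXD12 had 0, 3 and 2 against 0, 1 and 0, with overlapping groups in each case. HOXD3 had 11, 11 and 12 reads in siNC and 5, 7 and 7 in siZEB1. HOXD13, the digit patterning gene mutated in synpolydactyly, had 9, 4 and 5 against 3, 1 and 1. The groups of HOXD3 and HOXD13 did not overlap, yet with no filter on low counts edgeR's quasi-likelihood test called 0 of the 6, with adjusted p from 0.205 to 0.914. In that fit the HOXD13 comparison gave an unadjusted p of 0.0540, and no member of the 6 reached an unadjusted p under 0.05.

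After the ZEB1 knockdown 14 HOX genes were lower and 1 was higher at an adjusted p under 0.05 by edgeR's quasi-likelihood test. Among all 14996 genes tested, 21.2% were called lower and 19.0% higher, or 40.2% in either direction. The 14 make 42.4% of the 33 HOX genes tested, and the 6 untested ones complete the 39. The fold change was below 1 for 31 of the 33, against 50.6% of all genes tested, and the median log2 fold change was −0.34 (range −1.03 to 0.30), against −0.0055 over all genes. In 18 of the 33 every siZEB1 sample lay below every siNC sample in CPM, and in 1 every siZEB1 sample lay above, where 25.3% and 24.3% of all genes did so. Most changes were modest. With a fold above 1.5 also required, 5 of the 33 tested HOX genes were lower, against 8.57% of all genes tested. HOXA6, HOXB3, HOXB6 and HOXB8 were among the 5. HOXC10 did not pass this limit, so 0 of the 33 were higher, against 6.36% of all genes tested.

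**Figure D2:**
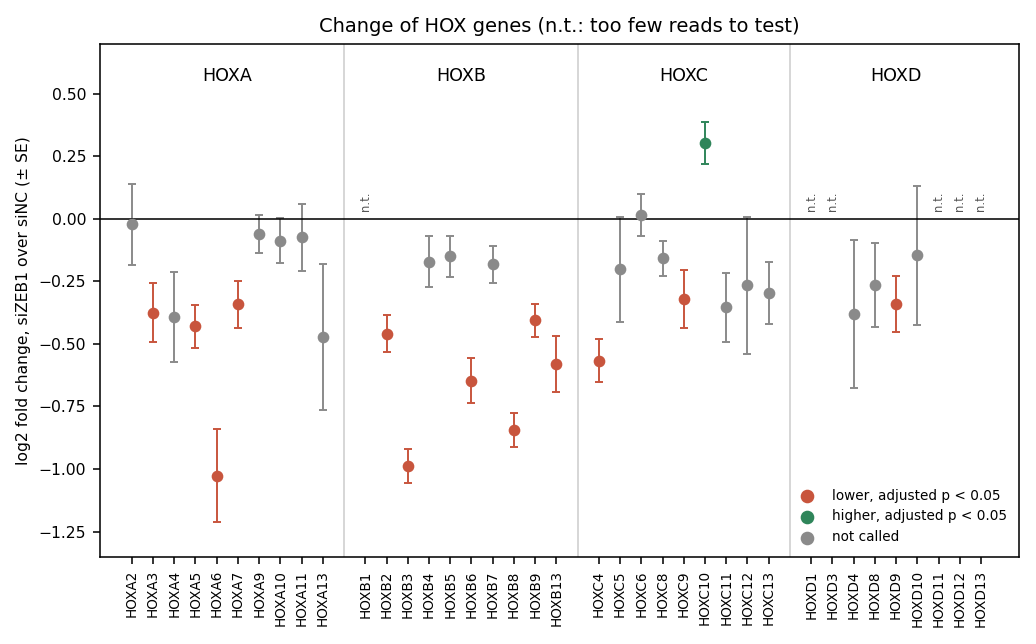
Log2 fold change of siZEB1 over siNC for the HOX genes (points, with bars of ± 1 SE), by cluster and paralog number, coloured by the call at an adjusted p under 0.05. All tested genes but HOXC6 and HOXC10 lie below 0, HOXA6 is the lowest at −1.03 and HOXC10 the highest at 0.30, and n.t. marks the 6 genes with too few reads.

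The reads on HOX genes went from 19433, 20873 and 18857 in the siNC libraries to 13679, 13484 and 13196 in the siZEB1 libraries. The summed level moved from 375 ± 15.6 to 287 ± 8.38 RPKM, without overlap. The HOXB sum moved from 200.6 ± 11.3 to 145 ± 4.83 and the HOXA sum from 91.9 ± 1.96 to 67.8 ± 2.39. The HOXD sum moved from 11.4 ± 0.898 to 9.03 ± 0.586. The HOXC sum moved by the smallest share of its siNC level, from 70.9 ± 3.03 to 65.7 ± 1.5, with siNC samples of 67.6, 71.6 and 73.6 and siZEB1 samples of 67.1, 65.8 and 64.1. Its groups were apart by a margin smaller than the spread within siNC. HOXC genes thus held 22.9 ± 0.179% of the HOX level in siZEB1, and HOXB genes 50.4 ± 0.230%. HOXA genes held 23.6 ± 0.210% and HOXD genes 3.14 ± 0.253%.

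**Figure D3:**
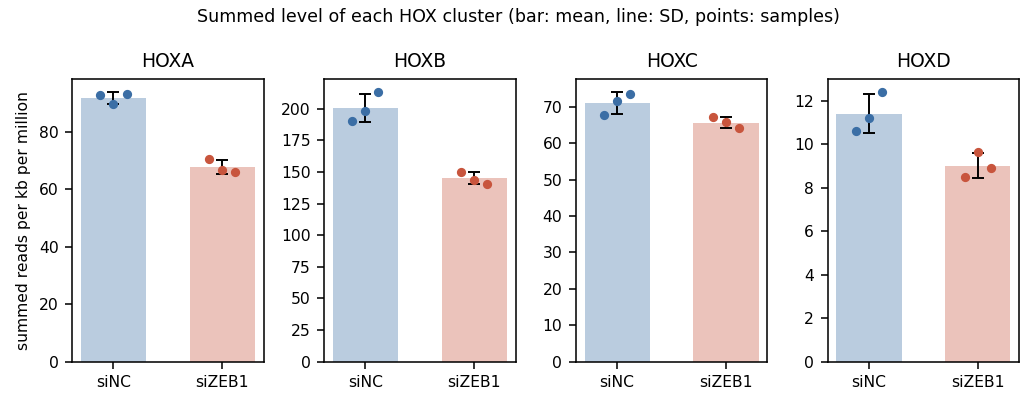
Summed level of each HOX cluster in siNC and siZEB1, in RPKM, with bars for the mean, lines for the SD and points for the 3 samples of a group; each panel has its own axis from 0. In each panel the siZEB1 points lie below the siNC points, by the narrowest margin in HOXC.

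The HOXA cluster lies on chromosome 7, and 5 of its 11 genes were lower, all with numbers of 7 or less. This share was 45.5%, against 21.2% of all genes tested. HOXA6 and HOXA7, a pair of trunk patterning genes, are neighbours read from the minus strand, and the antisense gene HOXA-AS3 crosses both. Their promoter windows are shown because HOXA6 gave the lowest fold change estimate and the HOXA7 window held the motif: ZEB1 is known to bind E-boxes of the form CACCTG. Each window runs from 250 bases before a RefSeq transcription start to 50 after it, on GRCh38.p14 and 5′ to 3′ on the minus strand, at chr7:27147725-27148024 for HOXA6 and chr7:27156626-27156925 for HOXA7. Capitals mark CACCTG or its reverse complement CAGGTG.
HOXA6 promoter window: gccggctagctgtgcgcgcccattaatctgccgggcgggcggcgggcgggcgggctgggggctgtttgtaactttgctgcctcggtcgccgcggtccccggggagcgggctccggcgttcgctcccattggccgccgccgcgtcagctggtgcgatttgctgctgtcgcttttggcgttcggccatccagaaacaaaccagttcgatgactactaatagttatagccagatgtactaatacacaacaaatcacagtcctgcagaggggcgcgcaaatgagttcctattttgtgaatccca
HOXA7 promoter window: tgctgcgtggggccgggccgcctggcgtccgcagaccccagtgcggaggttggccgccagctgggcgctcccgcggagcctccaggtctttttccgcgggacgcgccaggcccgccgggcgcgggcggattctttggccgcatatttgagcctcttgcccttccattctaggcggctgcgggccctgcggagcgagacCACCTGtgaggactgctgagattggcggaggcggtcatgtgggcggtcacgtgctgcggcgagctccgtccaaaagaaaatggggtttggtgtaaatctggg
The HOXA7 window held 1 match, with its first base 52 bases before the start (position −52), and the HOXA6 window held 0. The G and C content was 60.3% for HOXA6 and 68.0% for HOXA7. Windows were found for 20 HOX genes, and of their 27 windows only this 1 held the motif on either strand, against 20.6% of all 35116 RefSeq windows. The related form TACCTG, searched on both strands as well (CAGGTA), lay in 1 of the 27, that of HOXD4, and in 9.83% of all. A match is a string of letters and does not show binding.

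HOXA6 had 79, 91 and 66 reads in siNC and 33, 33 and 39 in siZEB1. The groups did not overlap, and the level went from 2.91 ± 0.249 to 1.43 ± 0.138 RPKM. It fell 2.04-fold, with a change of −1.03 on the log2 scale (SE 0.187, adjusted p = 0.000309, edgeR's quasi-likelihood test). This was the lowest estimate among the HOX genes tested, but HOXB3 at −0.99 was within its SE, and without siNC replicate 2 HOXA6 gave −0.96 and HOXB3 −0.99. HOXA7 had 599, 560 and 469 reads in siNC and 397, 349 and 421 in siZEB1. Its groups were also apart, and it changed by −0.34 on the log2 scale (SE 0.0938, adjusted p = 0.00758). Without siZEB1 replicate 2 the HOXA7 call was lost (adjusted p = 0.0557, range over the alternatives 0.00166 to 0.0557, edgeR's quasi-likelihood test and DESeq2).

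HOXA-AS3 had 95, 109 and 78 reads in siNC and 33, 31 and 31 in siZEB1, with no overlap, and changed by −1.43 (SE 0.182, adjusted p = 8.802e-06). It covers 39.3% of the exonic bases of HOXA6 and 62.5% of those of HOXA7 on the opposite strand. The strand setting of the counting is not given in the sources used here, so reads of these genes and of HOXA-AS3 cannot be told apart with certainty, and its part in both results was not tested.

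HOXA5, a lung patterning gene that also restrains stem cell traits in the intestine, had 438, 463 and 433 reads in siNC and 303, 303 and 296 in siZEB1. Every siZEB1 value lay below every siNC value, and the log2 fold change was −0.43 (SE 0.0863, adjusted p = 0.000716). HOXA5 shares no exonic base with another annotated gene. HOXA3, needed for the thymus and parathyroid glands, had 273, 229 and 254 reads in siNC and 163, 182 and 187 in siZEB1. The change of −0.38 (SE 0.118, adjusted p = 0.0176) lost its call without siNC replicate 1 or siZEB1 replicate 1 (adjusted p from 0.00509 to 0.0844 over the alternatives). On the opposite strand HOXA3 shares 6.69% of its exonic bases with HOXA-AS3, which was called lower (log2 fold change −1.43), and 8.69% with HOXA-AS2, which was not called (−0.20), and their part in the HOXA3 value was not tested.

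The 6 other HOXA genes were not called. Of the 4 with numbers from 9 to 13, 0 passed edgeR's quasi-likelihood test, 0 passed with DESeq2, 0 had an unadjusted p under 0.05, and their median log2 fold change was −0.08. HOXA9, a gene of blood stem cells and leukaemia, had 1080, 1023 and 998 reads in siNC and 924, 939 and 845 in siZEB1. Once scaled to library size its groups overlapped, at 16.3 ± 1.08 and 15.6 ± 0.901 RPKM (log2 fold change −0.06, SE 0.0757, adjusted p = 0.547). HOXA10 and HOXA11, both needed for the uterus, gave −0.09 and −0.07. HOXA13 gave −0.47 with an SE of 0.293, and HOXA4 gave −0.39 with an SE of 0.180. HOXA2, a gene of the branchial arches, gave −0.02 (adjusted p = 0.929).

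The HOXB cluster covers chr17:48528526-48729178 (GRCh38), and 6 of its 9 tested genes were lower (66.7%, against 21.2% of all genes tested). They ran from HOXB2 near the head end to HOXB13 at the tail end. HOXB3, which acts in the hindbrain and in blood progenitors, had 2214, 2308 and 1937 reads in siNC and 939, 970 and 1051 in siZEB1. The groups were widely separated. The level went from 13.8 ± 0.247 to 6.93 ± 0.376 RPKM, with a change of −0.99 on the log2 scale (SE 0.0668, adjusted p = 5.272e-09). By mean level HOXB3 went from rank 10 to rank 15 among the HOX genes. Its samples overlapped those of HOXC10, next in rank, in siNC and those of HOXC9 in siZEB1. HOXB8 had 1647, 1804 and 1646 reads in siNC and 835, 904 and 848 in siZEB1. It went from 39.6 ± 1.95 to 22.0 ± 0.771 RPKM, again with no overlap between groups (log2 fold change −0.84, SE 0.0689, adjusted p = 5.296e-08). By mean level HOXB8 went from rank 2 to rank 4, but its samples overlapped those of HOXB9 in siNC and of HOXC8 in siZEB1. HOXB8 shares no exonic base with another annotated gene.

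HOXB6, a trunk gene next to HOXB5, had 814, 931 and 927 reads in siNC and 546, 499 and 512 in siZEB1, with groups apart and a change of −0.65 on the log2 scale (SE 0.0894, adjusted p = 2.036e-05). It shares 16.6% of its exonic bases with HOXB3 on the same strand and 16.3% with the antisense gene HOXB-AS3 on the other. HOXB-AS3 had 976, 1083 and 866 reads in siNC and 311, 324 and 379 in siZEB1, a change from 46.4 ± 1.77 to 17.7 ± 1.82 CPM. It changed by −1.39 (SE 0.0859, adjusted p = 1.870e-09), and its part in the HOXB6 and HOXB3 values was not tested. HOXB-AS1, which overlaps HOXB2 and HOXB3, gave −0.34 and was not called (adjusted p = 0.0754).

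HOXB2, a hindbrain gene, had 1249, 1407 and 1284 reads in siNC and 901, 899 and 811 in siZEB1. All siZEB1 samples lay below the siNC samples, and the gene changed by −0.46 on the log2 scale (SE 0.0747, adjusted p = 0.000107). HOXB9 had 2191, 2457 and 2210 reads in siNC and 1618, 1542 and 1555 in siZEB1. It remained among the strongest HOX genes at 31.9 ± 1.14 RPKM, with separate groups and a change of −0.41 on the log2 scale (SE 0.0659, adjusted p = 0.000105). HOXB13 had 219, 257 and 227 reads in siNC and 135, 145 and 148 in siZEB1, also without overlap, and changed by −0.58 (SE 0.111, adjusted p = 0.00046). Neither HOXB9 nor HOXB13 shares an exonic base with another gene.

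Of the genes between HOXB3 and HOXB8, HOXB6 was lower, while HOXB4, HOXB5 and HOXB7 were not called. HOXB7, often raised in breast cancers, had 1168, 1204 and 1177 reads in siNC and 994, 957 and 901 in siZEB1. Its groups did not overlap, but the log2 fold change of −0.18 (SE 0.0746) did not pass the test (adjusted p = 0.0613). HOXB7 had the highest mean among the HOX genes in siZEB1 at 32.6 ± 1.83 RPKM, but its samples overlapped those of HOXB9. HOXB4, used to expand blood stem cells, gave −0.17 (adjusted p = 0.193) and HOXB5 gave −0.15 (adjusted p = 0.159), both with overlapping groups. HOXB4 and HOXB5 thus lie between genes that passed the test and did not pass it themselves. Whether their changes differ from those of their neighbours was not tested.

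The HOXC cluster covers chr12:53938765-54056030 (GRCh38) and gave calls in both directions. Among its 9 genes 2 were lower (22.2%, against 21.2% of all genes tested) and 1 higher (against 19.0%). HOXC4, which takes part in antibody class switching in B cells, had 465, 528 and 438 reads in siNC and 284, 301 and 293 in siZEB1. The groups were clearly apart, at 8.34 ± 0.314 and 5.63 ± 0.112 RPKM, and the log2 fold change was −0.57 (SE 0.0849, adjusted p = 4.688e-05). HOXC4 shares 17.8% of its exonic bases with HOXC6 on the same strand, and HOXC6 had 644, 697 and 563 reads in siNC and 609, 620 and 520 in siZEB1. After scaling, the HOXC6 groups overlapped, with a change of 0.02 on the log2 scale (SE 0.0843, adjusted p = 0.899).

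HOXC10, a gene of lumbar motor neurons and the hindlimb region, was the only HOX gene called higher. It had 590, 692 and 630 reads in siNC and 767, 686 and 694 in siZEB1. The raw reads overlapped, but the scaled levels did not, with siNC samples at 11.9, 13.3 and 14.02 RPKM and siZEB1 samples at 17.4, 15.3 and 15.6. The log2 fold change was 0.30 (SE 0.0841, adjusted p = 0.00836). Without siZEB1 replicate 1, the highest sample, the call was lost at 0.24 (adjusted p = 0.0669, range over the alternatives 0.00142 to 0.0669). HOXC10 shares 7.12% of its exonic bases with AC012531.2 on the same strand and 2.70% with HOXC-AS3, which had 6 to 15 reads in each sample and was not tested. The paralogs numbered 10 were the only ones whose summed level was higher in siZEB1, at 18.4 ± 1.27 and 21.1 ± 0.957, and HOXC10 supplied most of that sum.

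HOXC9, which sets thoracic motor neuron identity, had 257, 356 and 305 reads in siNC and 222, 242 and 205 in siZEB1. Its scaled groups overlapped, since siNC replicate 1 was low, and it changed by −0.32 (SE 0.117, adjusted p = 0.0381). It missed the threshold in 6 of 12 alternatives: with DESeq2, with the replicate number as a block, and without siNC replicate 2 or 3 or siZEB1 replicate 1 or 3 (adjusted p from 0.00407 to 0.162). HOXC8 had 975, 1021 and 950 reads in siNC and 786, 781 and 839 in siZEB1, and its separate groups gave −0.16 (SE 0.0716, adjusted p = 0.0903). HOXC11 and HOXC13 also had groups apart, at −0.35 (adjusted p = 0.051) and −0.30 (adjusted p = 0.0664). HOXC5 and HOXC12 had 17 to 49 reads per sample and were not called. HOXC5 shares 59.9% of its exonic bases with other annotated genes on the same strand, whose part in its low counts was not tested.

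The HOXD cluster covers chr2:176092891-176190907 (GRCh38), and 4 of its 9 genes could be tested. Of these 4, 1 was lower (25.0%, against 21.2% of all genes tested). HOXD9 had 259, 271 and 264 reads in siNC and 166, 210 and 196 in siZEB1. Its groups did not overlap, it shares no exonic base with another gene, and it changed by −0.34 (SE 0.111, adjusted p = 0.0213). That call was lost without siNC replicate 3 or siZEB1 replicate 1 (adjusted p from 0.0193 to 0.125 over the alternatives). HOXD8 had 89 to 152 reads and gave −0.26, HOXD4 had 16 to 46 reads and gave −0.38, and HOXD10, a hindlimb gene, had 22 to 47 reads and gave −0.15. The SEs of these changes were 0.167, 0.297 and 0.279, and none of the 3 genes was called. On the same strand, AC009336.2 covers 80.5% of the exonic bases of HOXD4 and 62.2% of those of HOXD3. AC009336.2 was not listed in the counts, and its part in these low counts was not tested.

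By number, 4 of the 5 tested paralogs from 1 to 3 were lower (80.0%, against 21.2% of all genes tested). HOXA3, HOXB2 and HOXB3 were among them, and the median log2 fold change of the 5 was −0.46. Of the 15 numbered 4 to 8, all tested, 6 were lower (40.0%), with a median of −0.34. Of the 13 tested that are numbered 9 to 13, 4 fell (30.8%) and HOXC10 rose, and the median was −0.30. The difference between these bands was not tested. All 5 tested genes numbered 1 to 3 are HOXA or HOXB genes, so number and cluster are not separated. Within 9 to 13, 2 of 2 HOXB genes and 0 of 4 HOXA genes were lower. In HOXC 1 of 5 was lower, and in HOXD 1 of the 2 tested. Of the 11 tested genes that share no exonic base with another annotated gene, 5 were lower (HOXA5, HOXB8, HOXB9, HOXB13 and HOXD9), or 45.5%. Of the 22 that do share bases, 9 were lower (40.9%). Both shares stand against 21.2% of all genes tested, and the difference between them was not tested.

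The noncoding genes of the clusters gave calls in the lower direction only. Of 31 listed, 20 were tested, and 8 were lower and 0 higher by edgeR's quasi-likelihood test (7 and 0 with DESeq2). The 8 make 40.0% of those tested, where 21.2% of all genes were lower and 19.0% higher. Over the 20 tested, the median change was −0.35 on the log2 scale. HOXC13-AS alone was higher at an unadjusted p under 0.05 (log2 fold change 0.66, adjusted p = 0.097). HOXB-AS2, with 89, 117 and 78 reads in siNC and 30, 28 and 36 in siZEB1, changed by −1.45 (adjusted p = 1.476e-05). AC103702.1, a transcript within the HOXB4 gene, changed by −1.14 on 6 to 33 reads (adjusted p = 0.0191). The HOXD transcripts HAGLR and HAGLROS gave −0.35 (adjusted p = 0.00265) and −0.48 (adjusted p = 0.0299). HOTAIR, a long noncoding RNA of the HOXC cluster known to bind Polycomb complexes, had 340, 369 and 318 reads in siNC and 178, 165 and 173 in siZEB1. It went from 16.3 ± 0.287 to 9.02 ± 0.424 CPM (log2 fold change −0.86, adjusted p = 2.330e-06). HOTAIR, HAGLR and HAGLROS were singled out after their values were seen.

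The TALE cofactors, the partners with which HOX proteins bind DNA, were called at about the share of all genes. Of 9 named, 8 were listed and tested, and 2 were lower (25.0%, against 21.2% of all genes) and 1 higher (against 19.0%). MEIS2 had 391, 395 and 316 reads in siNC and 157, 179 and 179 in siZEB1, with no overlap, and went from 17.5 ± 1.01 to 8.99 ± 0.586 CPM (log2 fold change −0.96, SE 0.101, adjusted p = 9.682e-07). PBX3 had 578, 589 and 552 reads against 316, 343 and 330 and changed by −0.66 (SE 0.0827, adjusted p = 6.782e-06). PBX2 was higher by 0.19 (adjusted p = 0.0336), but the count of cofactors called higher was 0 with no filter, with the replicate block, and without siNC replicate 2, siZEB1 replicate 1 or siZEB1 replicate 2. PBX4, MEIS1, MEIS3 and PKNOX1 were not called, with log2 fold changes from −0.17 to 0.12.

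**Figure D4:**
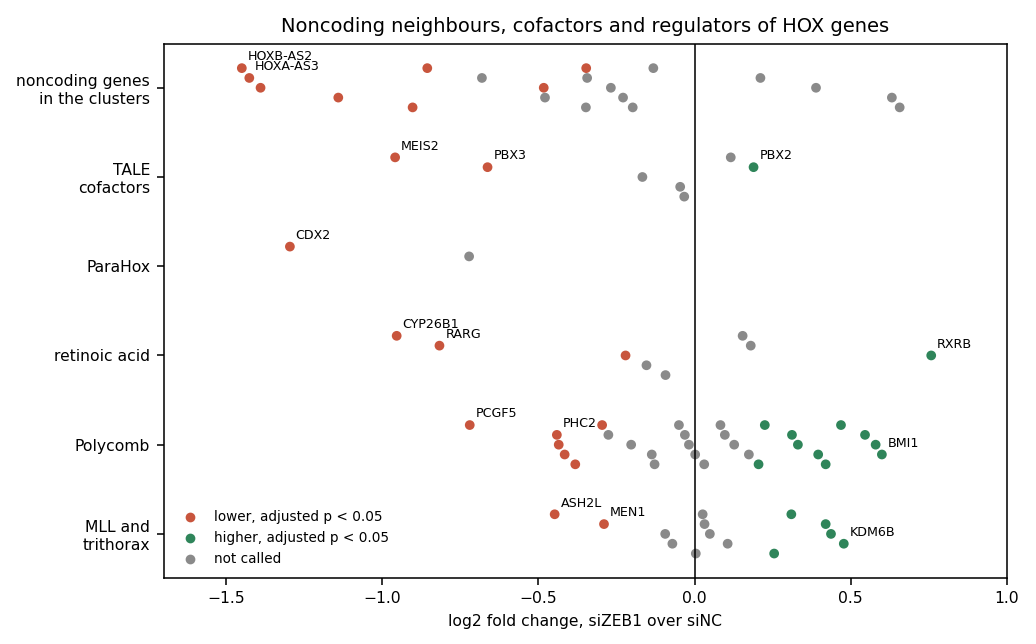
Log2 fold change of siZEB1 over siNC for the tested noncoding genes of the HOX clusters and for tested members of 5 lists of cofactors and regulators; each point is a gene, coloured by the call at an adjusted p under 0.05, with a few genes labelled. Called noncoding genes lie on the lower side only, with HOXB-AS2 at −1.45, while Polycomb and trithorax genes lie on both sides.

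CDX2, a ParaHox gene that controls HOX genes in the hindgut and marks intestinal epithelium, fell by a larger fold than any HOX gene tested, a difference that was not itself tested. It had 2023, 2312 and 2106 reads in siNC and 760, 862 and 769 in siZEB1, well apart, and went from 102.5 ± 7.08 to 41.8 ± 2.66 CPM (log2 fold change −1.30, SE 0.0748, adjusted p = 8.281e-10). PDX1, the pancreatic and duodenal ParaHox gene, had 10 to 28 reads and was not called. GSX1 and GSX2 had at most 2 reads in a sample.

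Of 16 genes of retinoic acid signalling named, 15 were listed and 8 tested, and 3 were lower and 1 higher. In either direction 4 of 8 were called, against 40.2% of all genes. The enzyme gene CYP26B1, which breaks down retinoic acid, had 120, 132 and 86 reads in siNC and 49, 54 and 55 in siZEB1 (log2 fold change −0.95, adjusted p = 0.000193). The receptor gene RARG had 465, 494 and 475 reads against 231, 275 and 236 and changed by −0.82 (adjusted p = 3.509e-06). In the other direction, the receptor partner RXRB had 395, 402 and 372 reads against 572, 649 and 580 and changed by 0.76 (adjusted p = 1.598e-06). CRABP2, a retinoic acid carrier, gave −0.22 (adjusted p = 0.00649). CYP26A1 had 0, 0 and 4 reads in siNC and 12, 14 and 9 in siZEB1, too few to test. ALDH1A3, also with too few, had 10, 11 and 8 reads in siNC and 1, 3 and 3 in siZEB1. The receptors RARA and RXRA were not called.

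Genes that keep HOX clusters silent or active were called in both directions. Of 29 Polycomb genes, all tested, 6 were lower (20.7%, against 21.2% of all genes) and 10 higher (against 19.0%). Their median change was 0.031 on the log2 scale. PCGF5 had the largest change, −0.72 (SE 0.0725, adjusted p = 6.184e-07), with 2354, 2252 and 1808 reads in siNC and 1128, 1178 and 1230 in siZEB1. BMI1 (0.60, adjusted p = 2.951e-05), CBX6 (0.58, adjusted p = 1.044e-06) and PHF19 (0.55, adjusted p = 1.064e-05) were the next largest and were higher. Of 14 MLL and trithorax genes 2 were lower (14.3%, against 21.2%) and 5 higher (against 19.0%), with a median of 0.040. In both lists the share called higher was above that of all genes, a difference that was not tested. KDM6B, which removes the Polycomb histone mark, changed by 0.48 (adjusted p = 4.785e-05), RBBP5 by 0.44, ASH2L by −0.45 (adjusted p = 0.000398) and DOT1L by 0.42. These RNA levels give no measure of the histone marks on the HOX clusters.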

How the data were processed

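RNA-seq counts of 3 siNC and 3 siZEB1 cultures of SW480 were used. The authors deposited whole-number read counts per gene and sample. The submitters' processing notes name Trimmomatic, HISAT2, SAMtools, featureCounts and hg38. Their versions, the annotation and the strand setting are not given in the sources used here. Genes were matched by Ensembl ID to GENCODE 29 (31059 of 32029), which gave coordinates, union exon lengths and overlaps. Counts were fitted in R 4.3.3 with edgeR 4.0.16 (TMM scaling, filterByExpr by group, quasi-likelihood test, two-sided, Benjamini-Hochberg over the 14996 genes tested), and genes were called at an adjusted p under 0.05. The biological coefficient of variation was 6.58%. Levels are CPM on TMM-scaled libraries, divided by exon length in kilobases for comparison between genes. The samples of a group differed by more than sampling noise. The study describes independent control and knockdown samples and calls them biological replicates. The p-values cover the spread between these samples.

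The HOX members and the gene lists were chosen with earlier results of these data known. Reads per sample are given for called members, for the 5 with the highest siNC level per kilobase and for those with a mean of 1 to 20 reads, and the rest by range, with a few more members shown in full for comparison. From each other list at most 4 called genes with the largest change are named, besides genes that overlap a called member, marker genes, 3 noncoding genes singled out after their values were seen, and the few whose lack of a call is stated. On simulated counts for 14704 genes with 194 changed, 83.8% of 2-fold and 100% of 4-fold changes were recovered. Of the calls, 7.77% were unchanged genes. The simulation held no smaller changes, so it does not measure recovery of changes as modest as most of those in HOX genes. It also changed far fewer genes than the 40.2% called here. Alternatives were DESeq2 1.42.0, median-of-ratios and library size scaling, no filter, at least 10 counts in every sample, a fold limit of 1.5, a replicate block, each replicate left out, and other length scales. Promoter sequences are from RefSeq (GRCh38.p14). The single values of 2 genes are not reported here, in text or figures, though counts and sums over the lists include them.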

Additional observations from a re-analysis of the deposited data

How the results depend on the processing

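The 14 HOX genes called lower became 13 with DESeq2, 14 with median-of-ratios scaling or no filter, 15 with at least 10 counts in every sample, 16 with library size only and 5 with a fold above 1.5; leaving out 1 replicate gave 11 to 14. The 1 called higher became 0 with the fold limit, and 0 to 1 when a replicate was left out. With the replicate number as a block, 13 were lower, 1 was higher and 4968 of all genes were called, against 6035 without it. Deviations of same-numbered samples correlated at −0.066, −0.121 and −0.307 over 13197 genes, and those of differently numbered samples at −0.162 to 0.242. Deviations within a group of 3 sum to 0, so these values depend on each other and cannot settle whether the samples were prepared in pairs. Of 15 called members, 10 were called in each of 12 alternatives to the fit and 0 changed sign. HOXB7 was called with library size only, and HOXC11 in 3 alternatives. Signs turned among uncalled members when a replicate was left out: HOXA2 ran from −0.178 to 0.142 (0.024 without siNC replicate 2, 0.142 without siZEB1 replicate 3), HOXA11 from −0.225 to 0.057 (without siZEB1 replicate 3), HOXD10 from −0.28 to 0.139 (without siNC replicate 2) and HOXC6 from −0.024 (without siZEB1 replicate 2; −0.010 and −0.023 without siNC replicate 3 or siZEB1 replicate 1) to 0.096; the cause was not tested. The siNC shares of the HOX level became 54.3% (HOXB), 18.5% (HOXC) and 2.87% (HOXD) with the longest transcript as length, and 55.1%, 17.4% and 2.49% with plain reads. Across the alternatives, 35 to 39 genes of the cofactor and regulator lists and the noncoding genes of the clusters together were called. The reported number was 39. Retinoic acid genes called higher numbered 2 in 5 of the alternatives, and those called lower numbered 4 with no filter. The 5 tested members with under 50 reads in every sample (HOXA13, HOXC5, HOXC12, HOXD4 and HOXD10) had SEs of 0.21 or more, and 0 of them were called.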
